A study of Mus musculus with 18 samples.

Results

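The 40 genes described here encode the enzymes with which a cell removes superoxide, peroxides and oxidised thiols, together with 3 regulators of their transcription. They were taken as a list of symbols, all 40 are present among the 25731 symbols of the deposited count table, and all 40 passed the low-count filter that left 15088 genes for testing. The hearts came from adult male wild-type C57BL/6 mice killed 7 days after surgery. There were 3 groups of 6 animals with 1 library each: SHAM (sham surgery), IR (ischemia-reperfusion, a period without blood flow followed by its return) and IR+Decursin (the same injury with decursin, a pyranocoumarin of Angelica roots). No animal carried a transgene or a deletion per the labels. No source used here states the dose, route or timing of decursin or the length of the ischemia. The labels name 3 batches that each hold 1 group, so a batch difference and a group difference cannot be told apart.

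Superoxide dismutases turn superoxide into hydrogen peroxide, which catalase, the glutathione peroxidases and the peroxiredoxins then reduce. Many glutathione peroxidases, such as Gpx1 and Gpx3, draw on glutathione, which glutathione reductase keeps reduced. Most peroxiredoxins draw on thioredoxin, which thioredoxin reductase keeps reduced. Superoxide dismutases, thioredoxins, their reductases, peroxiredoxins and glutaredoxins exist in separate forms for the cytosol and the mitochondria, while Gsr and Gpx1 serve both. The heart muscle cell, being rich in mitochondria, holds much of both forms. NRF2, encoded by Nfe2l2, switches on many of these genes, KEAP1 marks NRF2 for destruction, and BACH1 competes with NRF2 for the same DNA element, the antioxidant response element.

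RefSeq promoters (build GRCm38.p6, from 250 bases before to 50 after the gene start) were at hand for 34 of the 40 genes, 42 promoters in all, and were searched on both strands for the core of that element, TGACNNNGC. It was found in 7 of the 42 (16.7%), against 4071 of 32851 promoters of the same length over all genes (12.4%). The Srxn1 match lies after the gene start. The 6 that lie before it are shown because both NRF2 and BACH1 are known for this core. Capitals mark the match, which in all but Nfe2l2 reads on the opposite strand.
Nfe2l2: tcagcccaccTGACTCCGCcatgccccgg
Gclm: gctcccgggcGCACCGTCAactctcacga
Prdx1: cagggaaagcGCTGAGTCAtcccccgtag
Mgst1: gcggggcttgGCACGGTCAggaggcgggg
Txnrd1: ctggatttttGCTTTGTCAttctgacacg
Sod1: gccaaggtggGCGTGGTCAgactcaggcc
The windows are chr2:75704885-75704913 on the minus strand for Nfe2l2, and on the plus strand chr3:122245413-122245441 for Gclm, chr4:116685456-116685484 for Prdx1, chr6:138140461-138140489 for Mgst1, chr10:82859104-82859132 for Txnrd1 and chr16:90220696-90220724 for Sod1. A match is a description of the sequence and not evidence of binding.

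Libraries held 27.5 to 35.0 M counts. The hearts carried the transcripts of heart muscle throughout: all 18 cardiomyocyte markers were detected, with a mean log2(CPM + 1) of 12.0 to 12.2 in SHAM, 11.2 to 11.6 in IR and 11.3 to 12.1 in IR+Decursin. CPM are counts scaled to a common library size with TMM factors. Macrophage markers lay at 3.82 to 4.22, 5.60 to 6.68 and 4.35 to 6.15 in the same order, and fibroblast markers at 5.55 to 5.79, 7.50 to 8.11 and 5.78 to 7.99. Libraries IR 3, IR 4 and IR+Decursin 2 held over 1000 counts of Xist in a study labelled as male mice, and IR+Decursin 6 and IR 1 held 2332306 and 308832 counts of the gene model Gm26917.

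In IR hearts the antioxidant genes split. The glutathione peroxidases, the extracellular superoxide dismutase and the peroxiredoxin of the endoplasmic reticulum rose, and every mitochondrial member fell. Of 40 members 10 rose and 15 fell at a false discovery rate under 0.05 in edgeR's quasi-likelihood test, or 62.5%. Scaled to total counts, without TMM factors, 19 rose and 9 fell, where the median of all genes moved to 0.31. Of all 15088 genes 7012 were then called higher and 1056 lower. Without the 3 libraries with Xist 11 rose and 14 fell, beside 3195 and 2582 of 15239 genes. Without the 2 rich in Gm26917 10 rose and 17 fell, beside 3621 and 3600 of 15200 genes. With TMM factors and all libraries, 46.9% of all 15088 genes were called, 25.3% higher and 21.7% lower. The share of members called higher was thus close to that of all genes, and the share called lower was above it. The median log2 fold change was -0.08 for the members and -0.00 for all genes. In 17 members (42.5%) the 6 IR libraries did not overlap the 6 SHAM libraries, 6 of them higher and 11 lower, against 26.9% of all genes (15.4% higher, 11.6% lower). At an unadjusted p under 0.05 there were 26 members (65%) against 53.7% of all genes. In these bulk libraries fewer cells of a type and less RNA per cell cannot be told apart. In the same libraries 18 of 18 cardiomyocyte markers fell (median -0.66) and 17 of 18 macrophage markers and 14 of 14 fibroblast markers rose (medians 1.97 and 1.11). Their part in the members' changes was not tested.

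**Figure D1:**
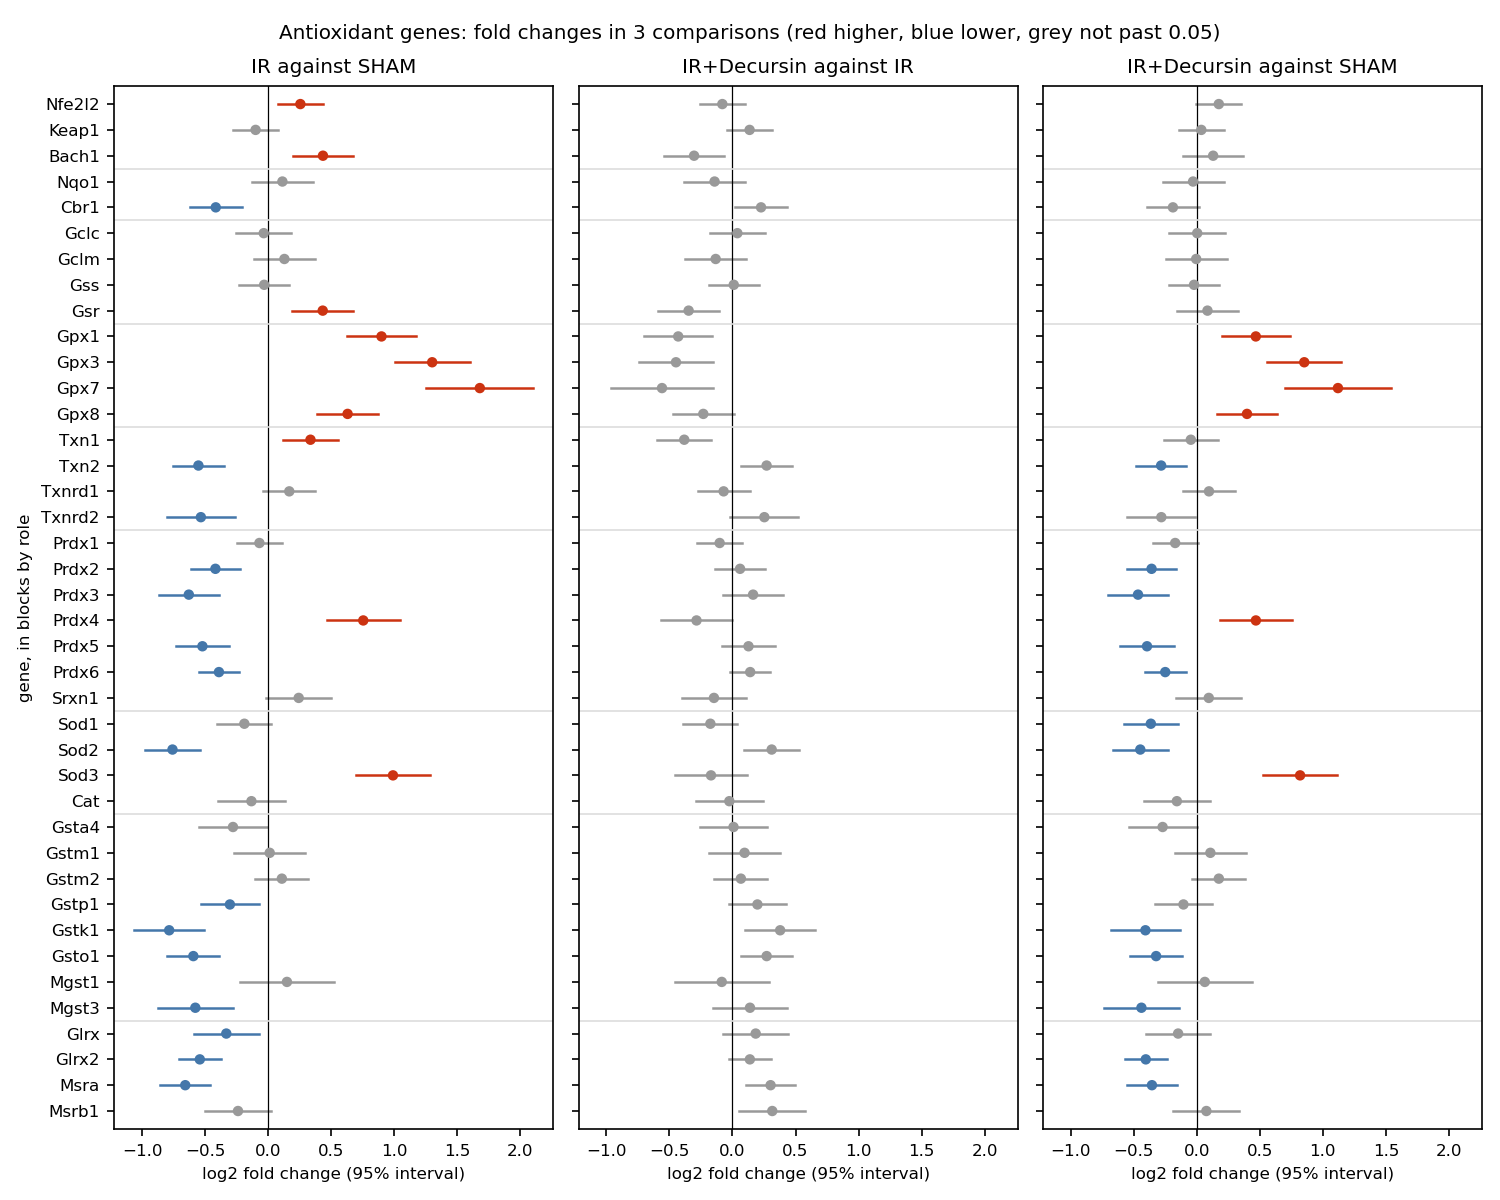
Log2 fold changes of the 40 genes with 95% intervals in the 3 comparisons, in blocks by role from the regulators at the top to the glutaredoxins and methionine sulfoxide reductases at the bottom. In IR against SHAM 10 genes are red (higher) and 15 blue (lower), in IR+Decursin against IR none is coloured, and in IR+Decursin against SHAM 6 are red and 12 blue.

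Of the regulators Nfe2l2 and Bach1 rose, and Keap1 was not called. Nfe2l2 ranged from 68.3 to 85.8 CPM in SHAM (median 71.2) and from 80.4 to 103 in IR (median 86.1). The ranges overlapped, 3 of 6 IR libraries lay above every SHAM library, and the gene rose by 0.26 ± 0.09 (log2 fold change ± standard error, adjusted p = 0.0188). Without IR 6 the rise was 0.21 and did not pass (adjusted p = 0.0549). Bach1, the repressor, also rose, from a median of 38.2 CPM (30.1 to 44.5) to 49.9 (42.9 to 59.0), with 5 of 6 IR libraries above all SHAM libraries (0.43 ± 0.11, adjusted p = 0.00356). Whether Bach1 rose more than Nfe2l2 was not tested. Keap1 had medians of 49.9 CPM (47.3 to 53.8) and 47.1 CPM (40.4 to 52.6), with overlap, and did not pass the test (-0.10, interval -0.28 to 0.08, adjusted p = 0.350, and 0.21 on total counts).

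Several genes known as NRF2 targets did not pass the test, though others did, some higher and some lower. Called higher in IR were Gsr (0.43), Txn1 (0.34) and, in the wider list below, Akr1b8, G6pdx, Pgd, Tkt and Slc3a2. Called lower were Cbr1 (-0.42), Prdx6 (-0.39) and Gstp1 (-0.30), though not on total counts. Among those that did not pass, Nqo1, which reduces quinones, had a median of 73.2 CPM in SHAM (51.7 to 77.2) and 74.4 in IR (60.8 to 91.4). The difference was 0.11 (interval -0.13 to 0.35, adjusted p = 0.448). Gclm, the modifier subunit of the enzyme that starts glutathione synthesis, had medians of 16.2 (15.3 to 18.7) and 17.3 CPM (15.1 to 21.5), a difference of 0.13 (interval -0.11 to 0.37, adjusted p = 0.382). Txnrd1, the cytosolic thioredoxin reductase, had medians of 50.9 (41.4 to 57.2) and 55.5 CPM (48.2 to 68.2), a difference of 0.17 (interval -0.04 to 0.37, adjusted p = 0.175). Gclc, Gss and Srxn1 did not pass either, and for these 6 target genes the IR and SHAM ranges overlapped. These outcomes depend on the scaling. On total counts the median of all genes moved to 0.31, and 7012 of 15088 genes were called higher. So were 5 of the 6. Nqo1, Gclm and Txnrd1 stood at 0.42, 0.44 and 0.48 (adjusted p = 0.00203, 0.0116 and 0.00365). Gss and Srxn1 stood at 0.28 and 0.55 (adjusted p = 0.0493 and 0.00415). Srxn1 was also called without SHAM 2. Prdx1 did not pass with TMM factors (-0.07) and is described with the peroxiredoxins.

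**Figure D2:**
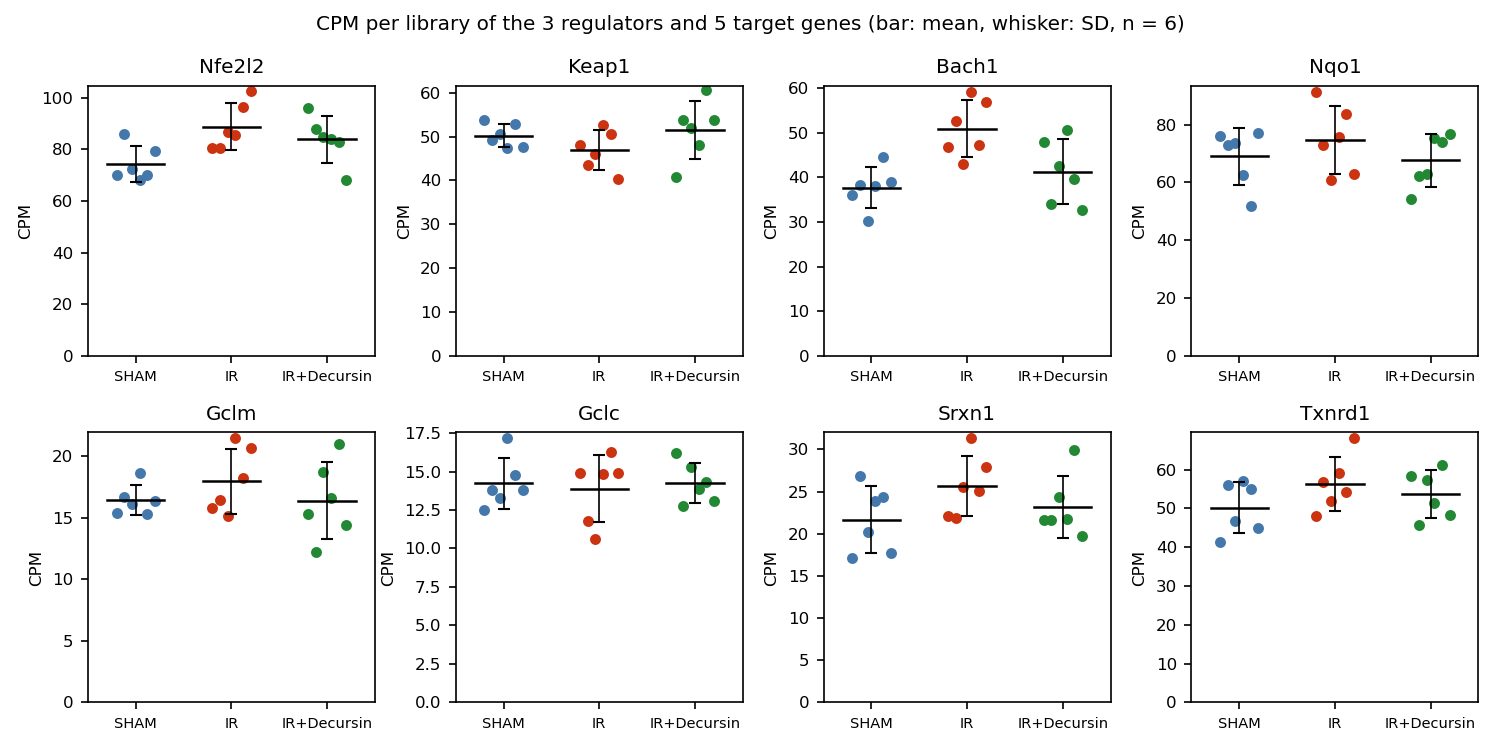
CPM per library of the regulators Nfe2l2, Keap1 and Bach1 and of 5 target genes not called in IR against SHAM. Groups are SHAM, IR and IR+Decursin, with the mean as a bar and the SD as a whisker over 6 libraries. The IR points of Bach1 lie mostly above SHAM (50.9 ± 6.29 against 37.7 ± 4.65 CPM), while those of Nqo1 and Gclm overlap SHAM.

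Cbr1 fell. Its product, carbonyl reductase, acts on quinones and prostaglandins. The gene had a median of 23.7 CPM in SHAM (21.5 to 27.3) and 18.2 in IR (13.8 to 20.0). The groups did not overlap, and it fell by 0.42 on the log2 scale (adjusted p = 0.00184). With total-count scaling Cbr1 was -0.11 and not called (adjusted p = 0.394).

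Of the 4 genes of glutathione synthesis and recycling, 1 rose. Gsr, glutathione reductase, went from a median of 20.4 CPM (18.7 to 21.7) to 26.6 (19.5 to 33.7). IR 3 stayed within the SHAM range and the other 5 IR libraries lay above it (0.43 ± 0.12, adjusted p = 0.00421). The ligase genes Gclc and Gss and the subunit gene Gclm lay between -0.04 and 0.13.

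All 4 glutathione peroxidases rose, and none of their IR libraries overlapped SHAM. Gpx7, a peroxidase of the endoplasmic reticulum, ranged from 5.69 to 7.48 CPM in SHAM (median 6.00) and from 17.7 to 23.3 in IR (median 19.4). This rise of 1.68 ± 0.20 (adjusted p = 7.11e-06) was the largest among the 40 genes. Gpx3, the secreted peroxidase of plasma, ranged from 160 to 234 CPM in SHAM (median 168) and from 317 to 563 in IR (median 476), a rise of 1.30 ± 0.14 (adjusted p = 3.97e-06). Gpx1, the peroxidase of cytosol and mitochondria, ranged from 73.5 to 96.8 CPM in SHAM (median 89.0) and from 141 to 203 in IR (median 154). It rose by 0.90 ± 0.13 (adjusted p = 2.06e-05). Gpx8, a membrane protein of the endoplasmic reticulum, rose by 0.63 ± 0.12 (adjusted p = 0.000195). All 4 were called under every alternative tried. Scaled to gene length, Gpx3 went from 100.8 to 308 FPKM (means), which placed 9 of the other genes above it in SHAM and Sod1 alone in IR.

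Of the 4 genes of the thioredoxin system 1 rose and 2 fell, and the cytosolic Txnrd1 was not called (0.17, adjusted p = 0.175). Txn1, cytosolic thioredoxin, ranged from 62.6 to 75.3 CPM in SHAM (median 67.3) and from 68.2 to 108 in IR (median 83.3). It rose by 0.34 ± 0.10 (adjusted p = 0.0117), with 5 of 6 IR libraries above all SHAM libraries. Txn2, the mitochondrial form, went from a median of 213 CPM (200 to 230) to 144 (128 to 168), with no overlap, a change of -0.55 ± 0.10 (adjusted p = 0.000109). Txnrd2, the mitochondrial reductase, went from 27.6 CPM (24.9 to 33.0) to 19.2 (14.0 to 23.0), also with no overlap (-0.53 ± 0.13, adjusted p = 0.00207, and -0.23 with adjusted p = 0.0977 on total counts). In the RefSeq gene table Txnrd1 overlaps Eid3, Prdx5 overlaps Trmt112 and Gpx8 overlaps Cdc20b, and since the strand setting of the counting is not given, reads of each pair cannot be told apart.

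Among the peroxiredoxins the same gene family went both ways. Prdx4, which acts in the endoplasmic reticulum, rose from a median of 16.6 CPM (15.1 to 21.4) to 27.6 (24.2 to 35.0), with no overlap (0.75 ± 0.14, adjusted p = 0.000186). Prdx3, the mitochondrial form, fell from 377 CPM (338 to 425) to 238 (199 to 315), with no overlap (-0.63 ± 0.11, adjusted p = 0.000154). Prdx1, the main cytosolic form, had medians of 363 CPM (329 to 388) and 338 CPM (289 to 424) and did not pass (-0.07, interval -0.25 to 0.11, adjusted p = 0.530). On total counts Prdx1 was 0.24 higher (adjusted p = 0.0382), less than the shift of all genes. Prdx2 (cytosol), Prdx5 (cytosol, mitochondria and peroxisomes) and Prdx6 (cytosol) fell by between 0.39 and 0.52 on the log2 scale. On total counts Prdx2 and Prdx6 were not called.

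Each superoxide dismutase took its own course. Sod2, the manganese enzyme of the mitochondrial matrix, ranged from 591 to 684 CPM in SHAM (median 636) and from 320 to 448 in IR (median 373). It fell by 0.76 on the log2 scale (standard error 0.11, adjusted p = 1.50e-05). Sod3, the extracellular copper-zinc enzyme, went from 35.6 CPM (30.9 to 43.9) to 76.1 (53.8 to 85.1), a rise of 0.99 ± 0.14 (adjusted p = 1.90e-05). In neither gene did IR overlap SHAM. Sod1, the cytosolic copper-zinc enzyme, had medians of 237 CPM (225 to 269) and 201 CPM (181 to 262), with overlap, and did not pass (-0.19, interval -0.40 to 0.02, adjusted p = 0.137, and 0.12 on total counts). Without IR 1, whose 262 CPM was the highest of its group, Sod1 was -0.29 and passed (adjusted p = 0.0233). Catalase (Cat), the peroxisomal enzyme, did not pass, and its IR and SHAM ranges overlapped.

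Glutathione transferases, which couple glutathione to reactive compounds, fell in 4 of 8 genes, and none of the 8 was called higher with TMM factors. Gstk1, a form of mitochondria and peroxisomes, went from a median of 75.6 CPM (71.0 to 79.6) to 44.9 (32.4 to 54.2), the largest fall among the 40 genes (-0.79 ± 0.13, adjusted p = 8.71e-05). Gsto1, which also reduces dehydroascorbate, went from 120 CPM (113 to 134) to 82.2 (70.4 to 89.2), a change of -0.59 ± 0.10 (adjusted p = 7.37e-05). Both were without overlap between the groups. Mgst3, a microsomal form, fell as well, by 0.58 on the log2 scale (adjusted p = 0.00226), with IR 1 (270 CPM) inside the SHAM range. Gstp1 fell by 0.30 (adjusted p = 0.0283), but not on total counts, in a blocked fit by replicate number (adjusted p = 0.0546), once IR 3, IR 4 and IR+Decursin 2 were left out together (adjusted p = 0.135), or when SHAM 3, SHAM 4 or IR 3 was left out. Gsta4, Gstm1, Gstm2 and Mgst1 were not called. On total counts Gstm1, Gstm2 and Mgst1 were called higher, and Mgst1 was so without the libraries with Xist as well. Gsta4 was called lower with voom, with the compared groups alone, without IR 1 and without both libraries rich in Gm26917. Gstp1, Gstm1 and Gstm2 have close relatives in the genome, and how reads matching several genes were counted is not given.

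Of the 4 thiol and methionine repair enzymes 3 fell. Msra, which reduces methionine sulfoxide in cytosol and mitochondria, went from a median of 46.5 CPM (40.3 to 47.2) to 27.1 (24.9 to 33.4), with no overlap (-0.66 ± 0.09, adjusted p = 2.04e-05). Glrx2, the mitochondrial glutaredoxin, went from 27.3 CPM (24.3 to 29.4) to 18.4 (17.4 to 20.0), with no overlap (-0.54 ± 0.08, adjusted p = 2.27e-05). Glrx, the cytosolic glutaredoxin, fell by 0.33 (adjusted p = 0.0318), with medians of 30.0 CPM (22.2 to 34.9) and 23.8 CPM (19.4 to 27.4) and overlap. The call on Glrx was lost when SHAM 1, SHAM 3, SHAM 6, IR 2, IR 3 or IR 5 was left out (adjusted p = 0.0541 to 0.0796) and on total counts (-0.02, adjusted p = 0.915). Msrb1, a selenoprotein reductase of cytosol and nucleus, did not pass.

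**Figure D3:**
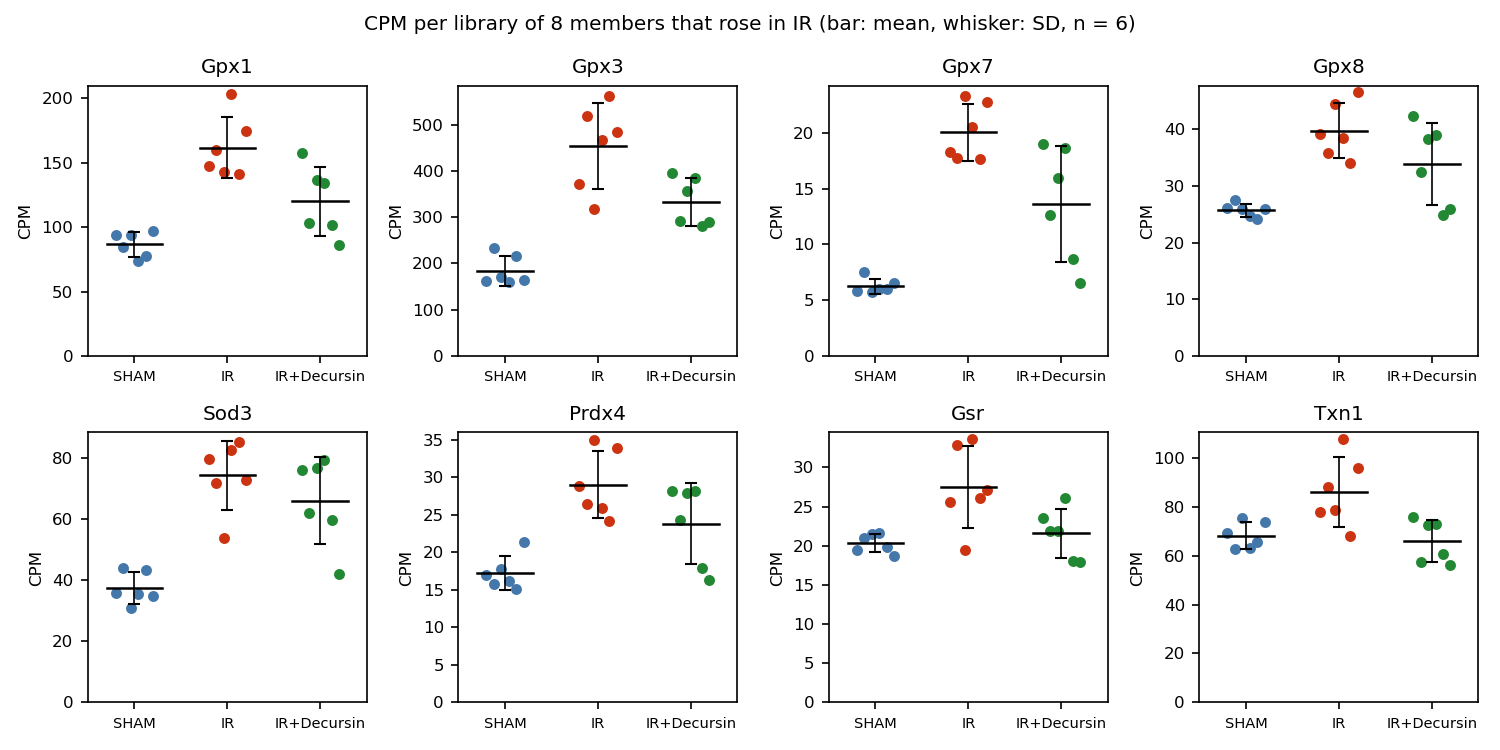
CPM per library of the 4 glutathione peroxidases, Sod3, Prdx4, Gsr and Txn1 in the 3 groups, with the mean as a bar and the SD as a whisker over 6 libraries. IR lies above SHAM without overlap in the first 6 genes, and 2 of the 6 IR+Decursin points of Gpx7 (8.71 and 6.50 CPM) lie close to SHAM.

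Sorted by compartment, the split was plain. All 6 mitochondrial genes (Sod2, Prdx3, Txn2, Txnrd2, Glrx2 and Gstk1) fell, by a median of 0.59 on the log2 scale, and in all 6 IR lay below SHAM without overlap. Of 19 cytosolic genes 6 fell, 1 rose and 12 were not called (median -0.07). Of the 4 genes with products in both places 2 rose (Gsr and Gpx1) and 2 fell (Prdx5 and Msra). Both secreted enzymes rose (Gpx3 and Sod3), and of 5 genes of the endoplasmic reticulum 3 rose and 1 fell. Of all 15088 genes 25.3% were called higher and 21.7% lower. Without overlap 15.4% of all genes lay higher and 11.6% lower. The share of cytosolic genes called, 36.8%, was below the 46.9% of all genes. The cytosolic median lay 0.52 above the mitochondrial one. With total-count scaling, where 5 of 6 mitochondrial genes still fell, 9 cytosolic genes rose and 1 fell, and the medians were 0.24 and -0.29, the gap was 0.53. Under that scaling 7012 of all 15088 genes were called higher and 1056 lower. Beside this, 33 of 33 nuclear genes of oxidative phosphorylation fell with a median of -0.68, and cardiomyocyte markers fell with a median of -0.66. Whether the mitochondrial antioxidant genes fell apart from these was not tested.

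**Figure D4:**
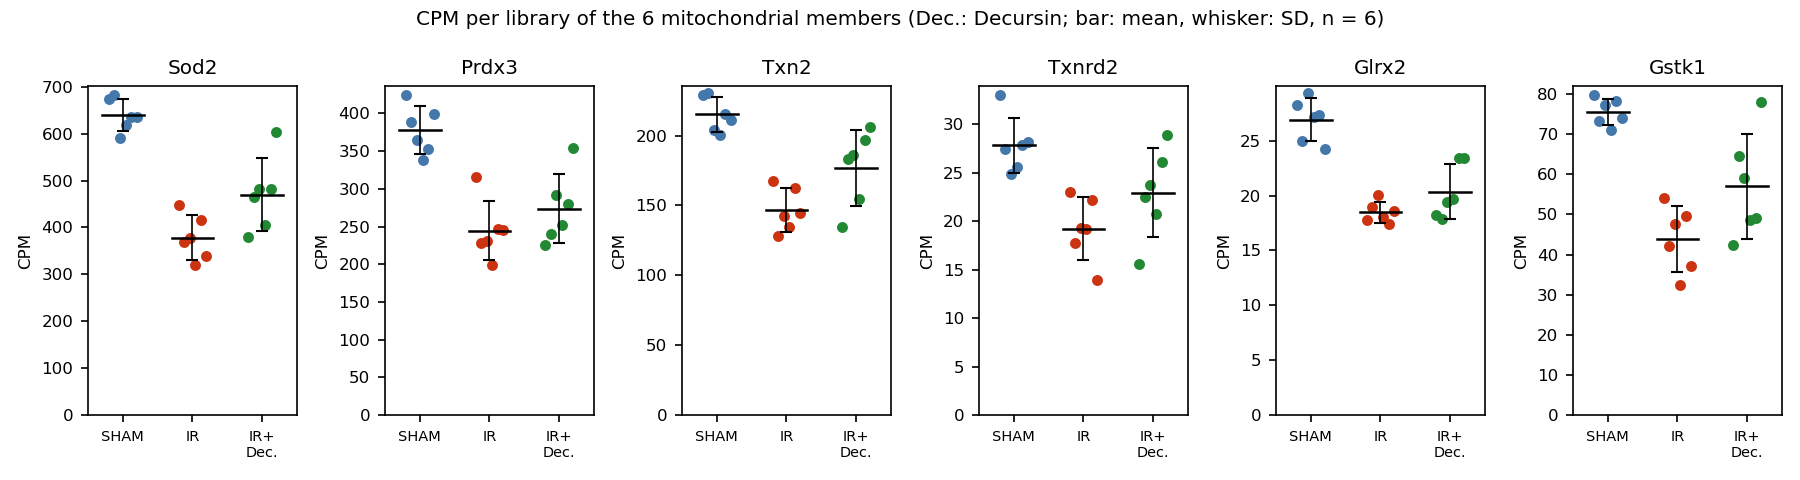
CPM per library of the 6 mitochondrial genes in SHAM, IR and IR+Decursin, with the mean as a bar and the SD as a whisker over 6 libraries. All IR points lie below all SHAM points in each gene, from 378 ± 47.5 against 640 ± 34.5 CPM for Sod2 to 18.5 ± 0.94 against 26.9 ± 1.95 CPM for Glrx2, and IR+Decursin spreads across the gap.

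The ratio of a cytosolic to a mitochondrial form within 1 library does not depend on how libraries are scaled. Taken from FPKM, which divide counts by gene length and library total, Sod1/Sod2 ranged from 2.00 to 2.53 in SHAM (median 2.24) and from 2.87 to 4.27 in IR (median 3.33), without overlap. Txn1/Txn2 ranged from 0.332 to 0.449 in SHAM and from 0.513 to 0.978 in IR, also without overlap. Prdx1/Prdx3 had medians of 0.994 and 1.48 and Txnrd1/Txnrd2 of 0.914 and 1.37, with IR 1 and IR 5 lowest in both. Glrx/Glrx2 had medians of 4.31 and 4.97 with wide overlap. These ratios are given as values without a test.

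**Figure D5:**
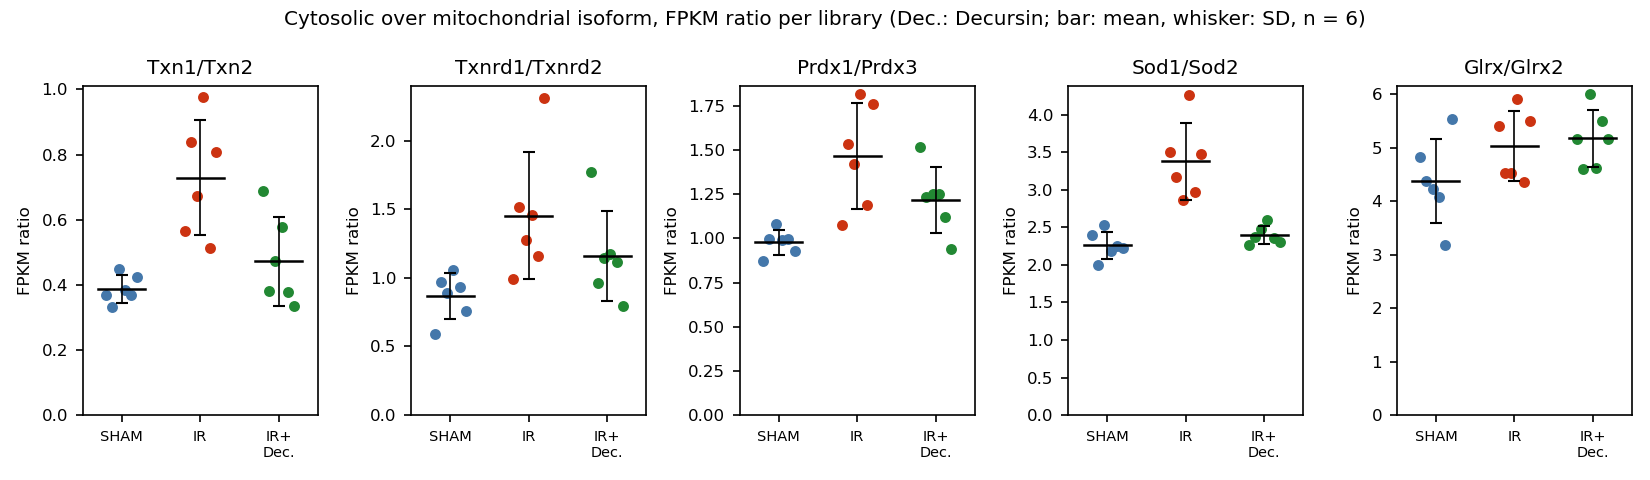
FPKM ratio of the cytosolic to the mitochondrial form per library for 5 pairs, with the mean as a bar and the SD as a whisker over 6 libraries. For Sod1/Sod2 the IR+Decursin libraries (2.27 to 2.60) lie within or just above the SHAM range and below all IR libraries (2.87 to 4.27).

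In IR+Decursin against IR no antioxidant gene passed the test, as none of the 15088 genes did (0% called). At an unadjusted p under 0.05 there were 14 members (35% of 40) against 2712 genes (18% of all). Without the 3 libraries with Xist there were 9 members and 1293 of 15239 genes. Without the 2 rich in Gm26917 there were 13 and 1991 of 15200. Leaving out IR+Decursin 6 alone gave 13 and 1803 of 15266, and IR+Decursin 1 alone 20 and 4059 of 15207. No member separated the groups without overlap, against 0.517% of all genes. The 3 genes with the smallest p were Txn1, Gpx1 and Gpx3, all lower with decursin. Txn1 had a median of 66.6 CPM (56.4 to 76.0) with decursin and 83.3 in IR (-0.38, interval -0.60 to -0.17, adjusted p = 0.107). Gpx1 had 119 CPM (86.0 to 157) against 154 (-0.43, interval -0.70 to -0.16, adjusted p = 0.128), and Gpx3 had 324 CPM (280 to 394) against 476 (-0.45, interval -0.74 to -0.16, adjusted p = 0.136). DESeq2 called these same 3 genes (adjusted p = 0.0306, 0.0478 and 0.0479), among 374 higher and 96 lower genes, and voom in limma called no member.

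The library IR+Decursin 1 weighed on this comparison. Without it edgeR called 696 genes higher and 280 lower, among them 6 members higher (Txn2, Sod2, Gstk1, Gsto1, Msra and Msrb1) and 4 lower (Gpx1, Gpx3, Gpx7 and Txn1). Their adjusted p then lay between 0.0228 and 0.0456. Leaving out any other library of these groups called no member. With all libraries kept, Sod2 had a median of 473 CPM (380 to 603) with decursin against 373 in IR (0.31, interval 0.09 to 0.53, adjusted p = 0.153), and Txn2 had 185 against 144 (0.27, interval 0.07 to 0.47, adjusted p = 0.166). Gstk1 had 54.1 against 44.9 CPM (0.38, interval 0.10 to 0.65, adjusted p = 0.161). The mitochondrial genes had a median difference of 0.26 and the cytosolic genes of 0.04, in hearts whose cardiomyocyte markers had a median difference of 0.29 and macrophage markers of -0.68, with none of either list called.

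The IR+Decursin hearts spread widely in several of these genes, with an SD of 5.20 CPM for Gpx7 and 77.8 CPM for Sod2, against 2.54 and 47.5 CPM in IR. Gpx7 stood at 8.71 CPM in IR+Decursin 5, 6.50 in IR+Decursin 6 and 12.7 to 19.0 in the other 4, against 17.7 to 23.3 in IR and 5.69 to 7.48 in SHAM. IR+Decursin 6 lay inside the SHAM range and IR+Decursin 5 just above it. Sod2 stood at 380, 465, 481, 405, 481 and 603 CPM, with IR+Decursin 6 inside the SHAM range and IR+Decursin 1 among the IR values. The mean log2 deviation of the 6 mitochondrial genes from SHAM was -0.73 in IR+Decursin 1 and -0.05 in IR+Decursin 6, with the other 4 libraries between -0.54 and -0.31. Fibroblast markers (mean log2(CPM + 1)) were at 7.99 in IR+Decursin 1, 6.39 in IR+Decursin 5 and 5.78 in IR+Decursin 6, where SHAM reached 5.79. Cardiomyocyte markers were at 11.3, 11.8 and 12.1 in these 3 libraries. Their part in the spread of the antioxidant genes was not tested.

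Of the 5 isoform ratios, Sod1/Sod2 spread little. It lay between 2.27 and 2.60 in all 6 IR+Decursin libraries, below all 6 IR libraries (2.87 to 4.27) and overlapping SHAM (2.00 to 2.53). The other 4 ratios overlapped between IR+Decursin and IR. In the single genes, Sod1 had a median of 187 CPM (144 to 231) with decursin against 201 in IR (-0.18, interval -0.39 to 0.04, adjusted p = 0.367). Against SHAM, with TMM factors, both genes were lower in IR+Decursin, Sod1 (-0.36, adjusted p = 0.0118) and Sod2 (-0.45, adjusted p = 0.00382). The ratio near that of SHAM thus came with both genes below SHAM. How often other pairs of genes separate in this way was not counted.

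IR+Decursin against SHAM uses libraries of both earlier comparisons, so its values are set beside theirs and are not separate support. Here 6 members rose and 12 fell, or 45% against 29.3% of all genes (17.5% higher, 11.8% lower). On total counts the split was 10 higher and 2 lower, where 4781 of all 15088 genes were higher and 377 lower. Without the 3 libraries with Xist it was 6 and 9 (2350 and 1356 of 15239 genes), with Txn2, Prdx6 and Gsto1 lost. Without the 2 rich in Gm26917 it was 6 and 14 (2758 and 2477 of 15200 genes), with Txnrd2 and Gsta4 gained. Leaving out IR+Decursin 6 alone gave 7 and 14 (2972 and 2158 of 15266 genes), with Nfe2l2, Txnrd2 and Gsta4 gained. The 4 glutathione peroxidases, Sod3 and Prdx4 were higher. Gpx7 rose by 1.12 ± 0.20 (adjusted p = 0.000828), Gpx3 by 0.85 ± 0.14 (adjusted p = 0.000449) and Sod3 by 0.82 ± 0.14 (adjusted p = 0.000559). Gpx3 was the only member above SHAM without overlap and Glrx2 the only one below, 5% of members against 7.34% of all genes (4.44% higher, 2.9% lower). Bach1, Gsr and Txn1 lay within 0.13 of SHAM and did not pass.

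Of the 6 mitochondrial genes 5 fell in IR+Decursin against SHAM (median -0.41), where 11.8% of all genes did. Glrx2 had a median of 19.5 CPM (17.8 to 23.5) against 27.3 in SHAM, without overlap (-0.40 ± 0.08, adjusted p = 0.00125). Sod2 fell by 0.45 (adjusted p = 0.00382) and Prdx3 by 0.47 (adjusted p = 0.00486). Txnrd2 was not called (-0.28, adjusted p = 0.108), but was called without IR+Decursin 6 (-0.36, adjusted p = 0.0362). The call on Txn2 (-0.28, adjusted p = 0.0314) was lost without SHAM 1, SHAM 2, IR+Decursin 1 or IR+Decursin 4, without IR 3, IR 4 and IR+Decursin 2 together (adjusted p = 0.0538) and with no filter on low counts (adjusted p = 0.0590), and that on Gstk1 (-0.41, adjusted p = 0.0251) without SHAM 1, IR+Decursin 1, 4 or 5. Of 19 cytosolic genes 4 fell and none rose (median -0.05), or 21.1% called against 29.3% of all genes. Sod1 was among those that fell (-0.36 ± 0.10, adjusted p = 0.0118). On total counts 2 mitochondrial genes (Sod2 and Prdx3) and no cytosolic gene fell, where 377 of all 15088 genes did.

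A wider list of 51 genes of glutathione, thioredoxin and NRF2 biology that are not among the 40 moved in both directions as well. Of 50 tested, 13 rose and 15 fell in IR against SHAM (56%, against 46.9% of all genes, median -0.05). The 8 with the smallest adjusted p comprised 5 that rose and 3 that fell. Akr1b8, an aldose reductase relative, went from 3.21 ± 0.815 to 14.6 ± 3.41 CPM (mean ± SD, n = 6), a rise of 2.18 (adjusted p = 3.62e-06). G6pdx and Pgd, dehydrogenases that form NADPH, rose by 1.28 (adjusted p = 5.47e-06) and 0.84 (adjusted p = 2.66e-05). Tkt, transketolase, rose by 0.95 (adjusted p = 1.17e-05). Slc3a2, the partner chain of the cystine carrier, rose by 0.66 (adjusted p = 3.05e-05). Those that fell were Msrb2 (-0.81, adjusted p = 1.17e-05) and Glrx5 (-0.76, adjusted p = 3.12e-05), both mitochondrial, and Chac2, which degrades glutathione (-0.81, adjusted p = 2.18e-05). Over the 50 genes, IR did not overlap SHAM in 36%, 9 genes higher and 9 lower, against 26.9% of all genes. None of the 50 was called in IR+Decursin against IR, and 9 rose and 7 fell in IR+Decursin against SHAM (32%, against 29.3% of all genes).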

How the data were processed

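Each of 18 mouse hearts gave 1 library of total RNA. The submitters' processing notes name fastp, HISAT2, HTSeq and the build GRCm39. No source used here gives versions, annotation release, strand setting or the handling of reads with several matches. The deposited read counts per gene were tested. The deposited FPKM values equal those counts divided by 1 length per gene and the library total, and served only for levels and ratios between genes. The test was edgeR 4.0.16 (R 4.3.3) with filterByExpr by group, TMM factors and 1 robust quasi-likelihood fit of all 18 libraries. Tests were two-sided, with Benjamini-Hochberg adjustment over 15088 genes and calls at 0.05. Standard errors are the log2 fold change divided by the root of the F statistic, and intervals are 95%. The fit was tested on simulated counts. Groups came from the labels and compartments from general knowledge. The members, lists and tests were chosen with earlier results of these data known. Described in full are the regulators, 5 isoform pairs, in each role the 2 genes with the smallest adjusted p in IR against SHAM, in IR+Decursin against IR the 3 with the smallest p, and of the wider list the 8 with the smallest adjusted p. Of that list Mgst2 fell below the filter. Of the other lists, 4 of 7 neutrophil, 6 of 6 T cell and 3 of 6 erythroid markers tested were higher in IR than in SHAM, and 1 of 13 endothelial markers was higher and 3 lower. Promoters are RefSeq's, build GRCm38.p6. Alternatives were RLE factors, total counts, DESeq2 1.42.0, voom with quality weights (limma 3.58.1), no filter, 1 CPM in 6 libraries, the compared groups alone, a replicate block, library sizes without mitochondrial, haemoglobin and Gm26917 counts, each library left out, libraries with over 1000 Xist counts left out and, chosen after seeing the data, those with over 100000 Gm26917 counts left out.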

Additional observations from a re-analysis of the deposited data

Results flagged for a closer look

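Each of the 40 genes was examined in each group of 6 for a library standing apart from the rest, by the share of the group's range that the gap to its nearest neighbour takes (Dixon's test at the 95% level). Of 120 such sets 2 met this, fewer than the 5% chance would give. Mgst1, a microsomal glutathione transferase, was at 32.7 CPM in IR 3, with the other 5 IR libraries from 61.2 to 78.3 CPM, and stood apart at the low end. Mgst3, its relative, was at 270 CPM in IR 1, with the other 5 from 154 to 195 CPM, and stood apart at the high end.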

How the results depend on the processing

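Scaling to total counts moved most values. It gave 19 members higher and 9 lower in IR against SHAM and 10 higher and 2 lower in IR+Decursin against SHAM, with cytosolic medians of 0.24 and 0.19 and mitochondrial medians of -0.29 and -0.20. Of all 15088 genes it called 7012 higher and 1056 lower in the first comparison and 4781 and 377 in the second. Under it Keap1 (0.21), Prdx1 (0.24) and Sod1 (0.12) changed sign in IR against SHAM, as did Txn1 (0.19), Prdx1 (0.052), Glrx (0.07), Cbr1 (0.021), Nqo1 (0.19) and Gclm (0.22) in IR+Decursin against SHAM. Of the members not described in full, Gclc (0.27), Gss (0.28), Cat (0.17), Gsta4 (0.03) and Msrb1 (0.07) did so in IR against SHAM, and Gss (0.21), Cat (0.06) and Gstp1 (0.09) in IR+Decursin against SHAM. In IR+Decursin against IR 5 members turned negative (Gclc, Gss, Prdx2, Gsta4 and Gstm2). None of these values was called with TMM factors, and Prdx1 and Gss were called on total counts in IR against SHAM. Of the 25 members called in IR against SHAM, 18 were called under every alternative and 4 were lost only with total counts. The gap between the cytosolic and mitochondrial medians in that comparison stayed between 0.45 and 0.60. In IR+Decursin against IR, DESeq2 called 3 members lower, and with each library left out in turn from 0 to 6 members were higher and from 0 to 4 lower. Near 0 in IR+Decursin against SHAM, Gclm turned positive with no filter (0.0028), with the compared groups alone (0.0078), without the libraries with Xist (0.068) and without those with Gm26917 (0.0024), where Keap1 was -0.0032. With each library left out in turn, Keap1 ranged from -0.016 to 0.096, Nqo1 from -0.10 to 0.027 and Gclm from -0.088 to 0.067 there. A fit with the replicate number as block gave 10 higher and 14 lower, 0 and 0, and 6 and 12 members in the 3 comparisons. Of all 15088 genes it called 3591 and 3124, 0 and 0, and 2385 and 1488. The numbers did not pair the libraries: correlations of same-numbered deviations in IR against SHAM ran from 0.03 to 0.11, and 0 of 6 libraries correlated best with their own number (-0.40 to 0.31 and 2 of 6 in IR+Decursin against IR). Of the 40 genes Gpx7, at 5.69 to 7.48 CPM, had the fewest counts in SHAM.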
